A study of Mus musculus with 18 samples.

Results

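The circadian clock genes described here are 10 genes of the mouse: the activators Arntl (also called Bmal1) and Clock, the repressors Per1, Per2, Per3, Cry1 and Cry2, the nuclear receptors Nr1d1 and Nr1d2, and the output gene Dbp. They were taken by symbol from the authors' deposited tables, which list 37980 genes each. Each symbol had 1 row, and all 10 were tested in all 7 comparisons. RNA was sequenced from the nucleus accumbens, which lies in the ventral striatum, in 18 samples from C57BL/6 background mice that fell into 6 groups of 3. There were 3 groups with the label Rgs9-2 knockout (KO): mice with spared nerve injury (SNI) given desipramine at 15 mg/kg, injured mice given saline, and naive mice. The other 3 had the label wild type (WT) and the same 3 conditions. Desipramine, a tricyclic antidepressant, and saline were injected intraperitoneally 2 times a day. In SNI some sciatic nerve branches are cut, which leaves lasting neuropathic pain. For naive mice no injection is mentioned, so a comparison of saline-treated injured mice with them holds both the injury and the injections, which cannot be told apart. The sources used here do not give the age or sex of the mice, the light schedule or the hour of tissue collection. The purpose stated for the series concerns the part RGS9-2, a striatal protein that shortens G protein signalling, plays in gene regulation under neuropathic pain and antidepressant treatment.

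The clock of mammalian cells is a feedback loop of transcription. ARNTL pairs with CLOCK, or in the forebrain also with NPAS2, and the pair binds E-box sequences in the promoters of the Per, Cry, Nr1d and Dbp genes. PER and CRY proteins then repress the pair, and the receptors encoded by Nr1d1 and Nr1d2 repress Arntl. In rhythmic tissues of the mouse the messenger RNA of Arntl therefore runs roughly opposite in phase to those of Dbp, Nr1d1, Nr1d2 and the Per genes, while Cry1 lags behind the Per genes and Clock varies little. The nucleus accumbens keeps such a rhythm, and its clock genes are known to act on dopamine signalling and reward. Per1 and Per2 are also induced outside the loop, by cyclic AMP signalling and by glucocorticoids.

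Promoter sequences that hold motifs of the loop are shown first; the roles of the members come from what is known of them, not from these sequences. They are the 250 bases before the transcription start in RefSeq's table of build GRCm38.p6, which holds 13 windows for 9 of the 10 members, with 3 for Clock, 2 each for Arntl and Per1 and 1 for each of the others. Per1 is shown for its E-box (chr11:69098699-69098948, plus strand), Cry1 for an E-box beside its E-prime box (chr10:85185055-85185304, minus strand), Nr1d1 for an E-prime box (chr11:98775378-98775627, minus strand) and Per3 for a pair of D-boxes, the element that DBP binds (chr4:151044666-151044915, minus strand). Capitals mark these motifs and each sequence runs from its 5′ to its 3′ end.
Per1: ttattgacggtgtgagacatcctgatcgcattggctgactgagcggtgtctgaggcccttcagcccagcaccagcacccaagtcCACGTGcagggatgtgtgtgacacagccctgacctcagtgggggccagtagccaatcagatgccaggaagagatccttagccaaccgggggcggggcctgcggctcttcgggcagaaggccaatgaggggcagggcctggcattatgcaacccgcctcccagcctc
Cry1: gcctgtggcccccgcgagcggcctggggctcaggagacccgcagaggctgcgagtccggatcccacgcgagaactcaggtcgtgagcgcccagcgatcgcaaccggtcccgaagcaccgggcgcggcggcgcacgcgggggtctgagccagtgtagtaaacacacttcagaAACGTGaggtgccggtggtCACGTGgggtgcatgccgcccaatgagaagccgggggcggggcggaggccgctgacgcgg
Nr1d1: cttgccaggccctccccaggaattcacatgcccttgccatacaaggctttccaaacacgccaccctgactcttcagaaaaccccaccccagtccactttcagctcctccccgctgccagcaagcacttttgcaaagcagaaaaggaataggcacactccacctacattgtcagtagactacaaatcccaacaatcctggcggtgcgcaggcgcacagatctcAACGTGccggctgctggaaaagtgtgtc
Per3: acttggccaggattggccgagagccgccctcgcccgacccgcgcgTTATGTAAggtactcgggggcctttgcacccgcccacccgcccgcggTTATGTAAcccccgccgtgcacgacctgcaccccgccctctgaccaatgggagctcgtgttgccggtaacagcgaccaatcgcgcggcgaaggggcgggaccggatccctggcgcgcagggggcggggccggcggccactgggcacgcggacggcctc
The letters searched, on both strands, were CACGTG for the E-box, CACGTT for the E-prime box, TTATGTAA or TTACGTAA for the D-box and TGACGTCA for the cyclic AMP response element, besides the element bound by Nr1d and ROR receptors. No motif overlapped another in the windows of the members. The E-box stood in 6.02% of all 32851 promoter windows and in 2 of the members' 13, that of Cry1 and the Per1 window shown. The E-prime box stood in 3.85% of all windows and in 3 of the 13, those of Cry1, Cry2 and Nr1d1. The D-box stood in 0.931% of all windows and in 1 of the 13, that of Per3. The windows of Arntl, Clock, Dbp and Nr1d2 held none of the motifs. The other motifs, held by 1.55% and 0.332% of all windows in the order given, had no match in the members' windows, which says only that these letters are not in these windows.

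The tables hold 1 FPKM value per gene and group, so the spread among a group's 3 samples is not seen directly and their depth is unknown. FPKM is a level per length of transcript, which allows genes to be compared. After ± stands a standard error, recovered by dividing the deposited log2 fold change by the deposited test statistic. A gene was called where its q, Cuffdiff's p adjusted by Benjamini-Hochberg over all genes tested in the table, was 0.05 or less. By the sample titles each lane held a single group, and an effect of the lane cannot be told apart from one of the group. Rgs9 itself went against the genotype labels: in the authors' deposited tables it was 217, 177 and 168 FPKM in the groups labelled KO (naive, injured with saline and injured with desipramine), against 120.3, 104 and 114 FPKM in their counterparts labelled WT, and it was called higher in all 3 comparisons (q = 0.0443, 0.0170 and 0.00818). One value per gene cannot show whether a deleted part was transcribed, and every direction between genotypes rests on the labels. The medium spiny neuron genes that define the striatum were present in every group, their 12 levels summing to between 2508 and 4056 FPKM. Markers of neighbouring tissue differed between groups: 10 choroid plexus genes summed to 436, 617 and 679 FPKM in the KO groups given desipramine, given saline and left naive, against 27.0, 118 and 1450 FPKM in the same WT groups. Naive WT mice stood apart in these and in cortical neuron genes, and the 2 comparisons that use them had the largest median standard errors, 0.52 and 0.53 on the log2 scale against 0.26 to 0.34 in the other 5.

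Clock genes were well expressed in all 6 groups, and their order of level was nearly fixed. With the tables brought to one scale, each by its own factor, the medians over groups ran in FPKM from 64.7 for Dbp through 45.6 for Nr1d1, 39.2 for Nr1d2, 38.1 for Cry2, 21.9 for Per1, 12.5 for Per3, 11.0021 for Clock, 9.96 for Cry1 and 9.03 for Arntl to 7.96 for Per2. The output gene and the nuclear receptors thus stood above the activators, whose transcripts were among the least abundant. The levels of Dbp and Nr1d1 are uncertain, because each shares its locus with a more abundant gene, as described below. Dbp was above Nr1d1, Per3 above Clock, Clock above Cry1 and Cry1 above Arntl in all 6 groups, although the ranges of each pair overlapped. Nr1d2 and Cry2 swapped order between groups, as did Arntl and Per2. The ranges of Nr1d1 and Nr1d2, of Cry2 and Per1, and of Per1 and Per3 did not overlap.

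**Figure D1:**
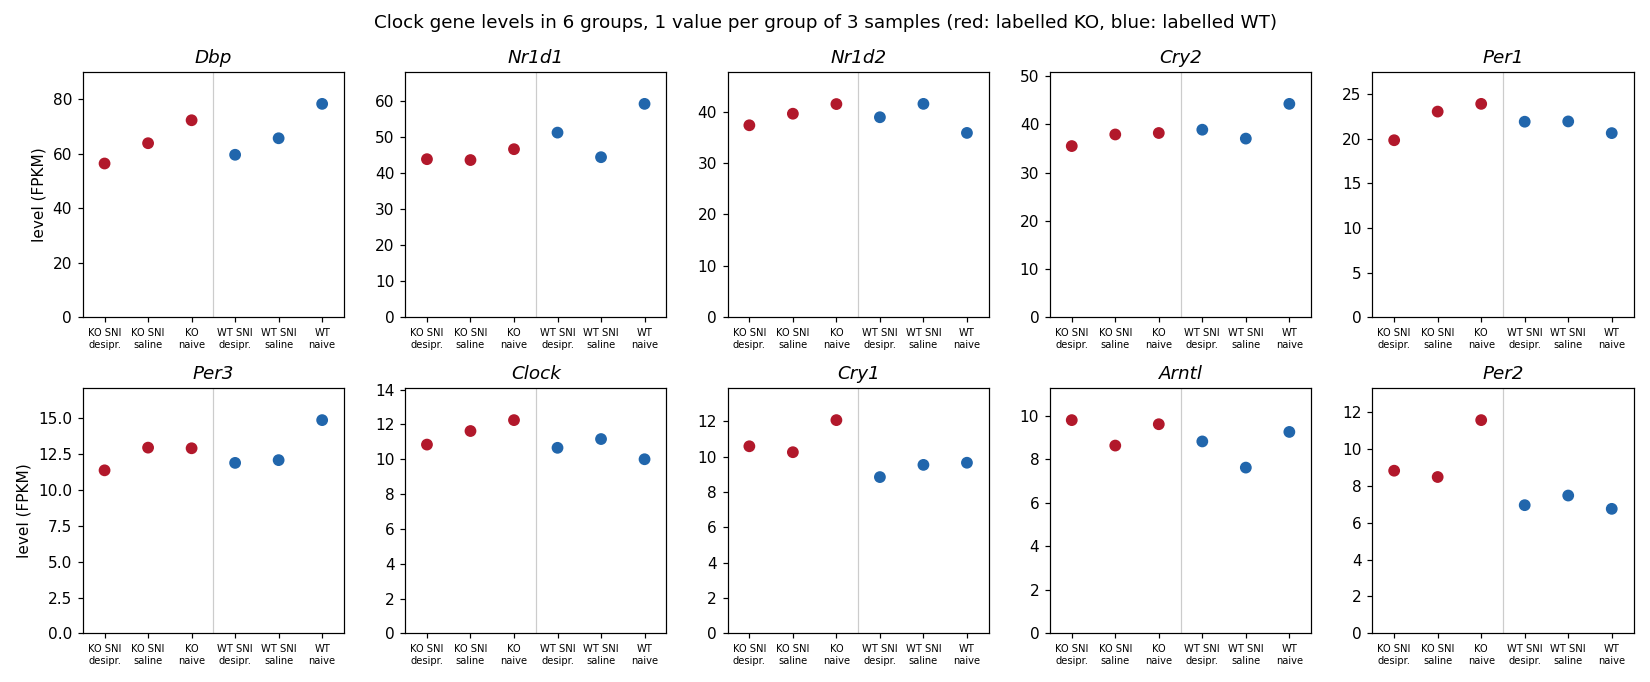
Level of each of the 10 clock genes (FPKM, axes from 0) in the 6 groups, 1 point per group of 3 samples, ordered by median level. Per2 spans the widest range, 1.71-fold between the lowest and the highest group, and Nr1d2 the narrowest, 1.16-fold.

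None of the 10 clock genes was called by Cuffdiff in any of the 7 comparisons, and the fold changes of most were small. Called genes made up 1.44% of all 17358 genes tested for KO against WT in naive mice, 0.329% in injured mice given saline and 0.859% in injured mice given desipramine, each with 0 of 10 clock genes among them. For injury with saline against naive mice the shares of all tested genes were 1.42% in WT and 0.459% in KO, and for desipramine against saline 0.202% in WT and 1.05% in KO, again with 0 of 10 clock genes called in each. At an unadjusted p under 0.05, 4 of the 70 member tests remained in the authors' deposited tables, 3 of them of Per2 and 1 of Cry1. They were 1 of 10 in naive KO against WT mice, beside 9.5% of all tested genes, 2 of 10 in the desipramine-treated groups, beside 5.58%, and 1 of 10 for injury in KO mice, beside 4.41%. The other comparisons had 0 of 10 at an unadjusted p under 0.05, beside 2.9% of all tested genes for KO against WT with saline, 8.94% for injury in WT and 1.79% and 4.37% for desipramine in WT and KO. With a normal p from the deposited test statistic, 0 of the 70 were under 0.05 before any adjustment. Apart from Per2, no member had a log2 fold change further from 0 than -0.42, that of Nr1d1 for injury in WT mice in the authors' deposited table. The median over the 10 members lay between -0.14 and 0.13 in the 7 comparisons, where the median over all genes with at least 1 FPKM in both groups lay between -0.04 and 0.0049.

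**Figure D2:**
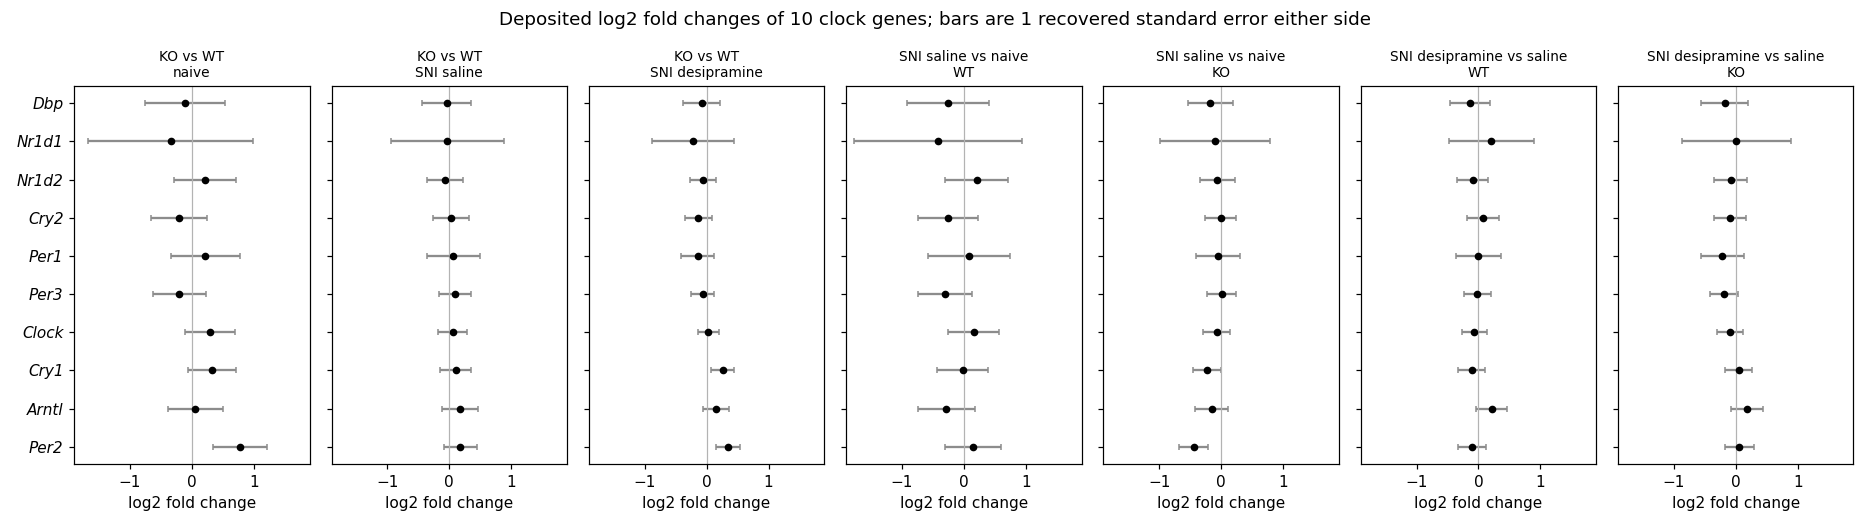
Deposited log2 fold change (horizontal axis) of the 10 clock genes in each of the 7 comparisons, first group over second, with 1 recovered standard error on either side. Most points sit within 1 standard error of 0, those of Per2 in 3 comparisons lie furthest out for their error, and the bars of Nr1d1 are the longest.

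Per2, a core repressor that responds to light, glucocorticoids and cyclic AMP, varied most. Its level was 8.80, 8.46 and 11.5 FPKM in the KO groups given desipramine, given saline and left naive, against 6.94, 7.46 and 6.74 FPKM in the same WT groups, on the scale set across tables. All 3 KO groups lay above all 3 WT groups, and the naive KO group stood apart from the rest. In naive mice the authors' deposited table has Per2 at 11.3 FPKM in KO and 6.60 FPKM in WT, a log2 fold change of 0.78 ± 0.43 (p = 0.00185, q = 0.0900, not called). With desipramine the authors' deposited table has it at 8.91 FPKM in KO and 7.02 FPKM in WT, a log2 fold change of 0.34 ± 0.20 (p = 0.00075, q = 0.0677, not called). With saline the authors' deposited table has 8.50 FPKM in KO and 7.51 FPKM in WT, a log2 fold change of 0.18 ± 0.26 (q = 0.99995). These 3 genotype comparisons share no group. Injury in KO mice gave 8.38 FPKM after injury and 11.4 FPKM in naive mice in the authors' deposited table, a log2 fold change of -0.45 ± 0.24 (p = 0.00095, q = 0.142, not called), and it shares the naive KO group with the first comparison. The deposited p of Per2 is far smaller than the normal p from its own statistic, which was 0.0718 in naive mice, 0.0801 with desipramine and 0.0645 for injury in KO mice. The 95% intervals from the standard errors ran from -0.07 to 1.62, from -0.04 to 0.73 and from -0.92 to 0.03 on the log2 scale in these 3 comparisons. A deposited p below the normal p was not particular to Per2, as the other members had it too. For Cry1 in KO against WT mice given desipramine, Cuffdiff's p was 0.0286 and the normal p was 0.162. In WT mice the authors' deposited tables give Per2 log2 fold changes of 0.15 ± 0.45 for injury and -0.10 ± 0.23 for desipramine. Its response to desipramine in KO mice was 0.06 ± 0.23 on the log2 scale in the authors' deposited table.

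Per2 is 1 of 2 members whose 3 KO group levels all exceeded the 3 WT levels, where 7.47% of 13647 genes did so and 7.13% had all KO levels below. The other was Cry1, the stronger of the cryptochrome repressors. Cry1 was at 10.6, 10.3 and 12.1 FPKM in the KO groups given desipramine, given saline and left naive, against 8.85, 9.54 and 9.66 FPKM in the same WT groups. In the authors' deposited table for desipramine-treated mice it was 10.7 FPKM in KO and 8.96 FPKM in WT, a log2 fold change of 0.26 ± 0.19 (p = 0.0286, q = 0.705). In naive mice and with saline the authors' deposited tables give Cry1 log2 fold changes of 0.32 ± 0.39 and 0.10 ± 0.25. The remaining 8 members had KO and WT ranges that overlapped. Whether the genotype difference of any member depends on injury or on desipramine was tested directly. The genotype difference of Per2 was larger in naive than in saline-treated injured mice by 0.60 ± 0.51 on the log2 scale, with a 95% interval of -0.39 to 1.59. By the same test 0 of 10 members passed for injury, beside 0.161% of 13636 genes, and 0 of 10 for desipramine, beside 0.130% of 13830 genes, with 0 of 10 at an unadjusted p under 0.05 in both. The standard errors of these differences ran from 0.29, for Clock with desipramine, to 1.61, for Nr1d1 with injury. With such errors the test cannot tell a small difference from none.

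Other transcripts had levels ordered like those of Per2 in part. Npas2, which encodes the forebrain partner of ARNTL, was at 18.7, 18.0 and 24.8 FPKM in the KO groups given desipramine, given saline and left naive, against 16.6, 15.7 and 15.4 FPKM in the same WT groups. Like Per2 it was highest in naive KO mice. The authors' deposited tables give Npas2 log2 fold changes of 0.69 ± 0.47 for KO against WT in naive mice (p = 0.0129, q = 0.273) and of -0.46 ± 0.27 for injury in KO mice (p = 0.00385, q = 0.327), neither called. The 12 medium spiny neuron genes, which include Rgs9, summed to 3043, 3075 and 4056 FPKM in the KO groups in that order. In the WT groups they summed to 2564, 2508 and 3441 FPKM, with none at 0. In naive KO against WT mice 11 of these 12 had a positive log2 fold change and their median was 0.69. Called higher were 3 of them, Pde10a, Drd1a and Rgs9 itself, beside 1.44% of all tested genes called. For injury in KO mice 0 of 12 were positive, 3 were called lower, beside 0.459% of all tested genes called, and the median was -0.50. Both comparisons use the naive KO group. For injury in WT mice 4 of 12 were positive and the median was -0.11, although the sum was higher in naive WT mice. A sum is weighted to abundant genes. Ppp1r1b alone was at 1028 FPKM in naive WT mice and at 647 FPKM in injured WT mice given saline. The 9 cortical neuron genes summed to 75.3 FPKM in naive KO mice and 299 FPKM in naive WT mice, and to 64.6 to 118 FPKM in the other 4 groups. The part of tissue composition in the values of Per2 and Npas2 was not tested. In bulk tissue, fewer cells of a type and less RNA per cell cannot be told apart.

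**Figure D3:**
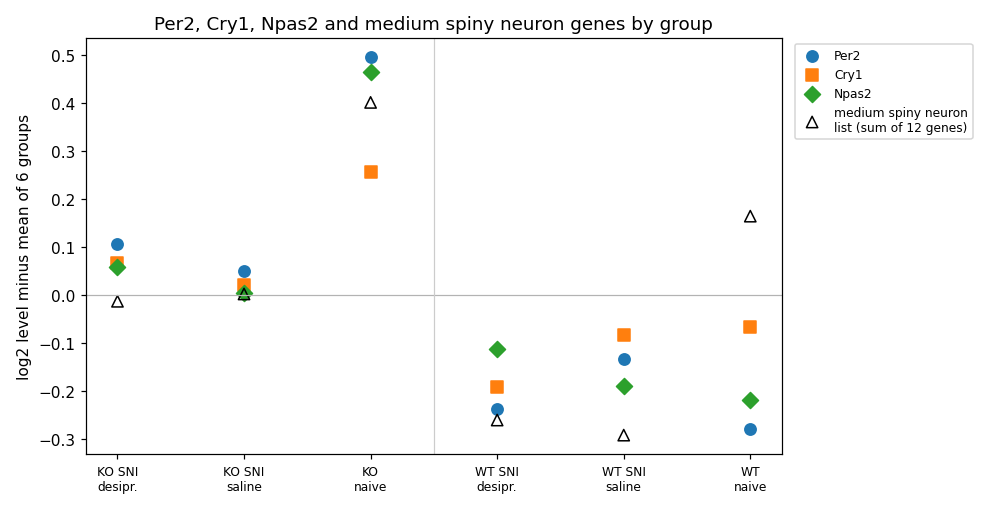
Level of Per2, Cry1, Npas2 and the summed medium spiny neuron list in the 6 groups, each as log2 level minus its mean over the groups, 1 point per group of 3 samples. The naive KO group is the highest for all 4. Naive WT mice are above the mean only for the sum of the medium spiny neuron list, which is weighted to its most abundant genes.

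The other period genes had smaller differences. Per1, the member most directly induced by glucocorticoids and cyclic AMP, was at 19.8, 23.0 and 23.9 FPKM in the KO groups given desipramine, given saline and left naive, against 21.9, 21.9 and 20.6 FPKM in the same WT groups. Its KO and WT ranges overlapped, and its largest log2 fold change in the authors' deposited tables was -0.22 ± 0.35, for desipramine in KO mice (q = 0.99997). Per3, a weaker period gene whose loss leaves the clock running, was at 11.4, 12.9 and 12.9 FPKM in the KO groups and 11.9, 12.1 and 14.9 FPKM in the WT groups in the same order. Naive WT mice stood highest for Per3, and the authors' deposited tables give it log2 fold changes of -0.20 ± 0.43 for naive KO against WT mice and -0.30 ± 0.44 for injury in WT mice. Cry2, the cryptochrome with the higher level here, was at 35.5, 37.9 and 38.2 FPKM in the KO groups and 38.9, 37.1 and 44.3 FPKM in the WT groups. In the authors' deposited tables none of its 7 log2 fold changes lay outside -0.26 to 0.07.

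Arntl, the activator without which the loop stops, was at 9.79, 8.62 and 9.60 FPKM in the KO groups given desipramine, given saline and left naive, against 8.81, 7.61 and 9.25 FPKM in the same WT groups. Within each genotype label the saline-treated injured group was the lowest. Desipramine against saline gave Arntl log2 fold changes of 0.18 ± 0.25 in KO mice and 0.21 ± 0.25 in WT mice, and injury gave -0.15 ± 0.27 in KO mice and -0.28 ± 0.46 in WT mice, in the authors' deposited tables. None was called, the lowest p being 0.132. Clock, whose product is the partner of ARNTL, was at 10.8, 11.6 and 12.2 FPKM in the KO groups and 10.7, 11.2 and 10.0017 FPKM in the WT groups, and its 7 values in the authors' deposited tables lay between -0.10 and 0.29 on the log2 scale.

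Dbp, which encodes a transcription factor driven by E-boxes, had the same order of conditions under both labels. It was at 56.3, 63.8 and 72.2 FPKM in the KO groups given desipramine, given saline and left naive, against 59.5, 65.6 and 78.2 FPKM in the same WT groups. Its log2 fold change was below 0 in all 7 of the authors' deposited tables, between -0.26 and -0.04, and its lowest p was 0.456. The 7 comparisons share groups, so these signs are not independent. Nr1d1, which encodes REV-ERBα, was at 43.9, 43.7 and 46.7 FPKM in the KO groups and 51.3, 44.5 and 59.3 FPKM in the WT groups. Nr1d2, which encodes REV-ERBβ, was at 37.3, 39.6 and 41.4 FPKM in the KO groups and 38.9, 41.5 and 35.8 FPKM in the WT groups, with overlapping ranges for both receptors. The highest log2 fold change of Nr1d2 was 0.21 ± 0.50, in naive KO against WT mice in the authors' deposited table.

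The precision differed widely between members. The standard error of Nr1d1 was 0.66 to 1.36 on the log2 scale and exceeded that of 95.5% to 96.8% of the tested genes within 2-fold of its level in each table. That of Dbp, 0.30 to 0.66, exceeded 80.9% to 84.0% of such genes, and that of Clock, 0.17 to 0.41, only 2.68% to 11.1%. In the authors' deposited tables Nr1d1 shares its locus (mm9, chromosome 11, 98601951 to 98636647) with Thra, a thyroid hormone receptor gene listed at 435 to 503 FPKM. Dbp shares its locus (mm9, chromosome 7, 52960457 to 52976205) with the ribosomal protein gene Rpl18, at 293 to 422 FPKM, and with Sphk2, at 15.8 to 23.6 FPKM. Reads from genes that overlap cannot be told apart where the library does not mark strand, which is not stated, so the levels of Nr1d1 and Dbp are uncertain to that extent. Over all 7 comparisons the 95% intervals of the log2 fold changes reached from -3.08 to 2.27 for Nr1d1, from -1.56 to 1.14 for Dbp, from -1.18 to 0.93 for Arntl, from -1.17 to 0.64 for Per3 and from -0.65 to 1.08 for Clock. In the 5 comparisons that do not use the naive WT group they reached from -1.83 to 1.75 for Nr1d1, from -0.91 to 0.74 for Dbp, from -0.68 to 0.75 for Arntl, from -0.64 to 0.60 for Per3 and from -0.51 to 0.51 for Clock.

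Opposite-phase genes were set side by side, Arntl against Per1, Per2, Per3, Dbp, Nr1d1 and Nr1d2. The phases are only roughly opposite, so samples taken at another hour need not differ in opposite directions for Arntl and for all 6. In none of the 7 comparisons did all 6 of these genes have the sign opposite to Arntl. It was 5 of 6 for KO against WT with desipramine, 5 of 6 for desipramine in WT mice and 4 of 6 for desipramine in KO mice, 3 comparisons that share groups. The mean log2 fold change of the 6 genes was -0.04 where that of Arntl was 0.15, -0.03 where it was 0.21 and -0.10 where it was 0.18, in the same order. Some of the signs counted rest on values close to 0. For desipramine in WT mice Per1 was at -0.0014 ± 0.36 and Per3 at -0.02 ± 0.22, both counted as opposite. In KO mice Nr1d1 was at 0.0073 ± 0.88, counted as not opposite. In naive mice and with saline, KO against WT had 3 of 6 opposite to Arntl, as did injury in WT mice, where Arntl, Dbp, Nr1d1 and Per3 all had values below 0. For injury in KO mice 1 of 6 was opposite, and the mean of the 6 genes, -0.14, had the sign of Arntl, at -0.15. Per2 and Dbp differed in sign in all 3 genotype comparisons, in naive mice by 0.78 against -0.11 on the log2 scale in the authors' deposited table. The log2 ratio of Arntl to Dbp was -2.52, -2.89 and -2.91 in the KO groups given desipramine, given saline and left naive, against -2.76, -3.11 and -3.08 in the same WT groups. It was highest with desipramine under both labels and lower in WT than in KO for each condition. No single test carries these signs, none of the genes was called, and a difference in the time of day between groups was not tested.

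**Figure D4:**
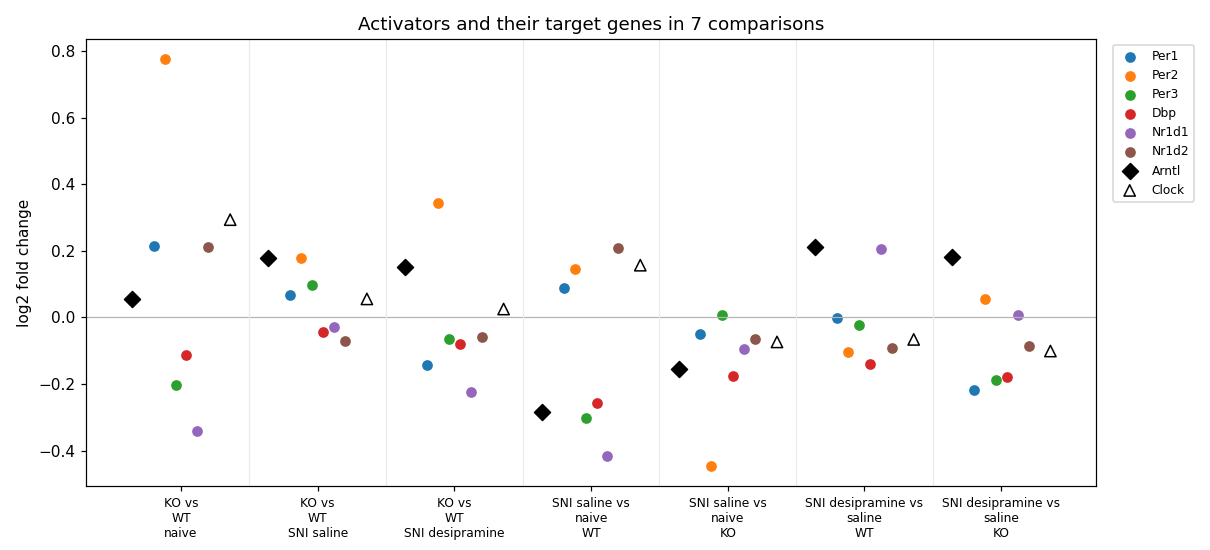
Log2 fold change (vertical axis) of Arntl (diamonds), Clock (triangles) and their target genes Per1, Per2, Per3, Dbp, Nr1d1 and Nr1d2 (circles) in the 7 comparisons, first group over second. Targets stand on both sides of 0 in every comparison, and Arntl is above 0 in the genotype and desipramine comparisons and below 0 in both injury comparisons.

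Over comparisons that share no group, some members kept their sign. Arntl, Clock, Per2 and Cry1 had a positive log2 fold change in all 3 genotype comparisons, where 15% of 13647 genes did, and Nr1d1 and Dbp a negative one, where 15.4% did. Arntl, Cry1, Cry2, Nr1d1 and Dbp were below 0 after injury under both labels, where 28.1% of genes were, and none of the 10 was above 0 in both, where 25% were. The value of Cry1 in WT mice was -0.02 and turned to 0.017 once the median of all genes was subtracted. Desipramine gave values above 0 under both labels for Arntl and Nr1d1, where 21.4% of genes had them. It gave values below 0 under both for Clock, Per1, Per3, Nr1d2 and Dbp, where 26.1% of genes had them.

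The wider clock machinery had 1 call in all. Of 24 further genes, which encode ROR receptors, E-box repressors, D-box factors, kinases, ubiquitin ligases, partners and outputs, all 24 were tested in each comparison and 1 was called in 1 of them. That was Arntl2, a paralog of Arntl, at 2.13 FPKM in KO and 5.33 FPKM in WT mice given desipramine, a log2 fold change of -1.32 ± 0.36 in the authors' deposited table (q = 0.00818). In that comparison 0.859% of all tested genes were called. The levels of Arntl2 were 2.11, 3.14 and 3.35 FPKM in the KO groups given desipramine, given saline and left naive. In the same WT groups they were 5.27, 4.59 and 3.77 FPKM. All KO levels lay below all WT levels, as they did for 7.13% of 13647 genes. The median log2 fold change of the 24 genes lay between -0.07 and 0.09 over the 7 comparisons. Tef, a D-box factor related to Dbp, was the most abundant of them, at 124 to 164 FPKM, and its lowest p in the authors' deposited tables was 0.192. Ciart, an E-box repressor listed under its older symbol Gm129, was at 12.7, 16.0 and 14.0 FPKM in the KO groups and 15.7, 20.3 and 15.8 FPKM in the WT groups, with a lowest p of 0.0567.

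Genes of the signals that reach Per1 and Per2 from outside the loop were compared too. Of 10 glucocorticoid-induced genes, 0 were called in any comparison, beside 0.202% to 1.44% of all tested genes. Their medians lay between -0.20 and 0.09 on the log2 scale. At most 1 of 10 had an unadjusted p under 0.05, beside 1.79% to 9.5% of all tested genes. Of 10 activity-induced genes, 3 were called higher in KO against WT mice with saline, beside 0.329% of all tested genes called. By the authors' deposited table these were Nr4a1 (0.74 ± 0.24 on the log2 scale), Npas4 (0.71 ± 0.29) and Arc (0.68 ± 0.27), each with a Cuffdiff q of 0.0170. After injury Npas4 (0.99 ± 0.29) and Fos (0.90 ± 0.37) were called higher in KO mice in the authors' deposited table. In that comparison 0.459% of all tested genes were called. With desipramine Npas4 (-0.88 ± 0.27), Arc (-0.52 ± 0.24) and Fos (-0.79 ± 0.36) were called lower in KO mice in the authors' deposited table, beside 1.05% of all tested genes called. Both comparisons, and KO against WT with saline, use the saline-treated injured KO group, so their calls are not independent. Nr4a1 was called higher with desipramine in WT mice, with 0.53 ± 0.21 in the authors' deposited table, beside 0.202% of all tested genes called. No gene of the list was called in the other 3 comparisons. Beside these, the log2 fold changes of Per1 in the authors' deposited tables were 0.07 ± 0.43 for KO against WT with saline, -0.05 ± 0.36 for injury in KO mice and -0.22 ± 0.35 for desipramine in KO mice. Those of Per2 were 0.18 ± 0.26, -0.45 ± 0.24 and 0.06 ± 0.23 in the same order, none of them called. Of 8 genes that respond to temperature or heat, 0 were called in any comparison, beside the same 0.202% to 1.44% of all tested genes.

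The genes most like the clock targets were sought by Pearson correlation over the 6 group levels with the mean log2 level of Per1, Per2, Per3, Dbp, Nr1d1 and Nr1d2. That mean ran only from 4.57 in desipramine-treated KO mice to 4.81 in naive KO mice. Among 2774 protein-coding genes with a standard deviation of at least 0.2, the highest correlations were those of Clic3 (0.975), Ccnjl (0.974), Lpl (0.966), Hs6st3 (0.957) and Mchr1 (0.949). The lowest were those of Camk2d (-0.974), Ppp1r14c (-0.954), Htr7 (-0.937), Sp8 (-0.935) and Fgf18 (-0.929). Dbp itself correlated with the mean at 0.83 and Nr1d2 at 0.26. The 6 points share libraries and lanes, the highest of many such correlations is high by selection, and no test is attached to them. The spread of the members over the 6 groups was ordinary: the standard deviation of the log2 level was 0.08 to 0.17 for 9 of them, against a median of 0.13 over 13647 genes, and 0.29 for Per2, larger than that of 89.8% of genes.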

How the data were processed

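RNA of 18 nucleus accumbens samples was made into TruSeq libraries and sequenced, per the labels' protocols. TopHat2 2.0.9, Bowtie2 2.1.0 and Cuffdiff 2.1.1 are named, beside NCBIM37 and mm9 as builds, per the submitters' processing notes. The sources used here give neither their options nor the annotation release. Samples were grouped by title. The authors deposited 7 tables, each of 1 pair of groups, with 1 FPKM value per gene and group normalized within its table, per the file headers. The deposited log2 fold change is the second group over the first, and the deposited test statistic is a score of Cuffdiff. The deposited q-value equals a Benjamini-Hochberg adjustment of the deposited p-value over the 17203 to 17464 genes of status OK. The 3 samples of a group are biological replicates by the design text, and their depth is unknown.

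Computed here (Python 3.11.15, pandas 2.3.3, numpy 2.4.6, scipy 1.17.1, matplotlib 3.10.9) were standard errors (log2 fold change over statistic), 95% intervals (1.96 standard errors), two-sided normal tests of differences between responses adjusted over genes with at least 1 FPKM in all 4 groups, and group levels set by 1 factor per table. A gene had no standard error where its fold change differed from its levels by over 0.01 or where its normal p was below 1e-04 with a deposited p above 0.05. With no values per sample, limma, planned for that case, was not used. The members and gene lists were chosen with earlier results of these data known. All 10 members are named; of other lists the called genes, up to 4, by q, or else up to 2 by p, not all printed. Tef, Ciart and the arms' signs were chosen for description after their values were seen. Alternatives were the q threshold, the adjustment, a normal p, a level filter, centring, pseudocounts and an unadjusted p.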

Additional observations from a re-analysis of the deposited data

How the results depend on the processing

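The count of clock genes called was 0 in all 7 comparisons with adjustment over all 7 tables (lowest adjusted p 0.0786). It was also 0 with only genes of at least 1 FPKM in a group (lowest 0.0652). With a normal p from the statistic it was 0 too (lowest 0.99992), beside 0.0677 as reported for Cuffdiff. With q at or below 0.01 it was bound to be 0, as no member was called at 0.05. With an unadjusted p under 0.05, an alternative added after seeing the data, the count was 1 in naive KO against WT mice, 2 in KO against WT mice given desipramine, 1 for injury in KO mice and 0 in the other 4. The count of members whose responses differed was 0 under all 3 alternatives of both tests. Of the refigured log2 fold changes 279 kept their sign and 1 did not. A pseudocount or a sum over 1 row cannot turn a sign. Only the 70 fold changes less the median of all genes could have done so. With that setting the value of Cry1 for injury in WT mice reversed to 0.017, from -0.02. The shift of that median, at most 0.04, shows the cause. A pseudocount of 1 moved values by at most 0.08. Levels summed over rows were the same, as each symbol had 1 row. No paired analysis was possible because the tables hold no values per sample, so the replicate block and leaving out each replicate were not run. Unknown depth and 1 lane per group limit every comparison.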

Other observations

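Single genes of the outside signals stood out without being called. Sgk1, a glucocorticoid-induced kinase gene, was at 32.3 FPKM in KO and 45.6 FPKM in WT mice given saline, a log2 fold change of -0.49 ± 0.28 in the authors' deposited table (p = 0.00485, q = 0.4996). Zbtb16, another glucocorticoid-induced gene, had log2 fold changes in the same direction under both labels in the authors' deposited tables, none called. They were -0.54 ± 0.33 in KO (q = 0.387) and -0.77 ± 0.50 in WT mice (q = 0.271) for injury, and 0.41 ± 0.32 in KO (q = 0.795) and 0.48 ± 0.29 in WT mice (q = 0.811) for desipramine. Of 13647 genes, 28.1% were below 0 under both labels for injury and 21.4% above 0 under both for desipramine. Under each label both comparisons use the saline-treated injured group, so the fall and the rise of Zbtb16 are not independent. Cirbp, whose transcript rises in the cold and follows the daily temperature rhythm, was at 72.3 FPKM in naive KO and 122 FPKM in naive WT mice, a log2 fold change of -0.76 ± 0.41 in the authors' deposited table (p = 0.0088, q = 0.223). Fosb, an activity-induced gene, was at 4.45 FPKM in naive KO and 2.33 FPKM in naive WT mice, a log2 fold change of 0.93 ± 0.44 in the authors' deposited table (p = 0.0011, q = 0.0649).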
